A study of Homo sapiens with 6 samples.

Results

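The mRNAs described here encode proteins that the liver releases into blood: carriers such as albumin and transferrin, protease inhibitors, clotting factors, and complement proteins. The 48 genes were listed by symbol and known role, with no limit on their values but with earlier results of these data known, and each was found among the 21863 gene symbols of the deposited values. They were divided by role into 15 genes for blood carriers and transport, 11 for protease inhibitors, 14 for clotting and clot lysis, and 8 for complement and innate defence. These are broad labels, and some genes would fit another role. The protease inhibitors include *AGT* and *ITIH1* to *ITIH4*, and the blood carriers include *AMBP* and *FETUB*.

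The values came from Hep G2, a cell line grown from a human liver tumor that keeps much of the secretory program of hepatocytes. Cells were transfected with 5 nM of dsRNA mimicking *miR-195* or with 5 nM of dsRNA mimicking *miR-497* and collected after 24 hours, or were left without transfection (NT), for which the labels give 0 hours. From each of the 3 conditions, 1 library of total RNA and 1 library of RNA bound to Argonaute 2 (Ago2-IP) were sequenced, 6 libraries in all from 1 cell line. The unit was RPKM, a read number scaled by gene length and by the mapped reads of the library. Since the NT cells received no dsRNA, a mimic and the act of transfection cannot be told apart, and with 1 library in each condition no difference below had a test or a replicate check.

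Hepatocytes make most plasma proteins from a set of very abundant mRNAs that are translated at the endoplasmic reticulum. Transcription of many of these genes depends on the same liver factors, among them HNF4 and the C/EBP family, and many mRNAs of the group have short 3′UTRs. *AFP* is the fetal counterpart of *ALB* and is silenced in the adult liver, but is often made again in liver tumors. MicroRNAs guide Ago2 to mRNAs by pairing of their bases 2 to 8, the seed, with sites that lie mostly in 3′UTRs, and the bound mRNA is then commonly lowered.

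The mature sequences are shown because both mimics carried the same seed, which is in capitals (5′ to 3′, RefSeq).
hsa-miR-195-5p: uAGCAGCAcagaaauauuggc
hsa-miR-497-5p: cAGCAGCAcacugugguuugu
The DNA word that pairs with this seed is TGCTGCT. Annotated 3′UTRs of 7 of the 48 genes held it (14.6%), against 2959 of 10199 genes (29.0%) with an annotated 3′UTR and a mean RPKM of at least 1. The genes of the group had short 3′UTRs, with a median of 436 bases for the longest annotated 3′UTR against 1511 bases over the same 10199 genes. Among the 15 genes of the group with a 3′UTR under 200 bases, 1 had the word, against 2.61% of other genes of that class, and among the 14 from 200 to under 600 bases, 0 had it, against 9.63%. Among the 8 from 600 to under 1200 bases it was found in 2, against 19.8%, and among the 11 of 1200 bases or more in 4, against 40.5% of 5918 other genes.

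The sites of the genes with enough RNA to compare are shown with their surroundings, since a mimic could pair with these members through the 7-base word. Sites outside annotated 3′UTRs were not searched. The word is in capitals, each line reads 5′ to 3′ on the strand of the mRNA, and positions of the word are in hg19.
*TF*, transferrin, the iron carrier, chr3:133508146-133508152, plus strand: ccaggctttggTGCTGCTgttctaagcag
*HP*, haptoglobin, which binds free hemoglobin, chr16:72093621-72093627, plus strand: gctccagccagTGCTGCTctagattcatc
*AGT*, angiotensinogen, chr1:230837957-230837963, minus strand: cagggccagacTGCTGCTggtattgtgcc
*F7*, clotting factor VII, chr13:113773721-113773727, plus strand: tggcctcaggcTGCTGCTctgccttcatt
*F11*, clotting factor XI, chr4:187210552-187210558, plus strand: ctaagacaagcTGCTGCTgtgactatggg
None of the 7 sites was followed by an A, the base that makes the longer word TGCTGCTA, which 600 of the 10199 genes (5.88%) held. The sites of *HP* and *AGT* lay only in 3′UTRs of transcripts other than the reference transcript. The *TF* site lay 10682 bases after the stop codon in an annotated 3′UTR of 18021 bases. The other genes with the word were *KNG1*, kininogen, and *ITIH1*, a heavy chain of the inter-alpha-trypsin inhibitor, both below the level set for comparison.

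Promoters of the group held a C/EBP word in a larger share than promoters at large. RefSeq promoter sequences, from 250 bases before to 50 bases after a start site, were matched for 37 of the 48 genes and for 13396 genes in all. The word TTGCNNAA, where N is any base, was present on either strand in 13 of the 37 (35.1%) and in 11.4% of all. The HNF4 word CAAAGTCCA was present in the promoters of *AHSG* and *F10* (5.4% of the 37, 0.5% of all), the FOXA word TGTTTAC in 3 (8.1%, and 3.9% of all) and TATAAA in 7 (18.9%, and 12.4% of all). *AFP*, *RBP4* and *FETUB* held both TTGCNNAA and TATAAA.

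A window around the C/EBP word is shown for the neighbouring genes *ALB* and *AFP*, for the abundant carriers *AHSG*, *TF* and *RBP4*, and for *FGA*. Each reads 5′ to 3′ on the strand of the gene, with TTGCNNAA or its reverse complement TTNNGCAA in capitals and coordinates in GRCh38.p14.
*ALB*, chr4:73404154-73404177, plus strand: aacaatttTTTGGCAAgaatatta
*AFP*, chr4:73435992-73436015, plus strand: tgttatatTTGCAAAAtaaaataa
*AHSG*, chr3:186612993-186613016, plus strand: ctgtatccTTATGCAAttcttccg
*TF*, chr3:133746287-133746310, plus strand: aggggcgaTTGGGCAAcccggctg
*RBP4*, chr10:93601331-93601354, minus strand: agggcgcgTTATGCAAgtgccccc
*FGA*, chr4:154590868-154590891, minus strand: gaggggaaTTGAGCAAgaatttct
The word began 125 bases before the start site in *ALB*, 221 in *AFP*, 59 in *AHSG*, 98 in *TF*, 111 in *RBP4* and 141 in *FGA*. RNA levels of the genes with the word were spread widely. In total RNA of NT cells the 13 genes with it ran from an RPKM of 0.571 to 4884 with a median of 27.0, and the 24 matched genes without it ran from 0 to 671 with a median of 10.6. The 11 genes with no matched promoter, whose word is unknown, had a median of 53.7. A word match is a description of the sequence and does not show binding.

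*AFP* dominated the group and stood far above *ALB*. In total RNA of NT cells *AFP* had the highest RPKM of all genes, and it alone made up 49.9% of the summed RPKM of the 48. The group as a whole took 3.06% of the summed RPKM of all genes in that library, or 1.53% without *AFP*, and 2.99% to 3.22% over the 3 total RNA libraries. The median RPKM of the group was 26.7 in total RNA of NT cells against 0.958 over all genes, and 15 of the 48 genes reached 100.

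Of 7 hepatocyte markers, *ALB*, *AFP*, *TTR*, *APOA1*, *APOB* and others, 7 were at an RPKM of 1 or more in each total RNA library. *KRT7* and *CFTR* of 5 bile duct markers, *COL1A2* and *DCN* of 6 stellate and fibroblast markers, *KDR* of 5 endothelial markers, and *PTPRC*, *MARCO* and *HBB* of 6 blood and Kupffer cell markers were listed at 0 in all 6 libraries. The other 3 bile duct markers, *KRT19*, *SOX9* and *EPCAM*, were at an RPKM of 1 or more in all 6 libraries. The summed RPKM of the bile duct markers was 127.5 in total RNA of NT cells, 186.1 after *miR-195* and 193.9 after *miR-497*. Most of this rise was in *KRT19* (46.7, 103 and 108). The sums of the stellate and fibroblast markers were 24.2, 34.5 and 38.2, carried by *ACTA2*, those of the blood and Kupffer cell markers 10.7, 13.3 and 14.03, carried by *CD68*, and those of the endothelial markers 0.312, 0.453 and 0.400. The part of these differences in the results on the group was not tested. Depth is not part of the values used here. The spacing of RPKM values, together with annotated mRNA lengths, implied 24700000, 29300000 and 31000000 mapped reads in total RNA (NT, *miR-195*, *miR-497*) and 16800000, 13600000 and 10700000 in Ago2-IP. The lengths used for the deposited values are not known. The read numbers and 95% counting intervals below rest on this spacing and these lengths, and the intervals cover counting error only.

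**Figure D1:**
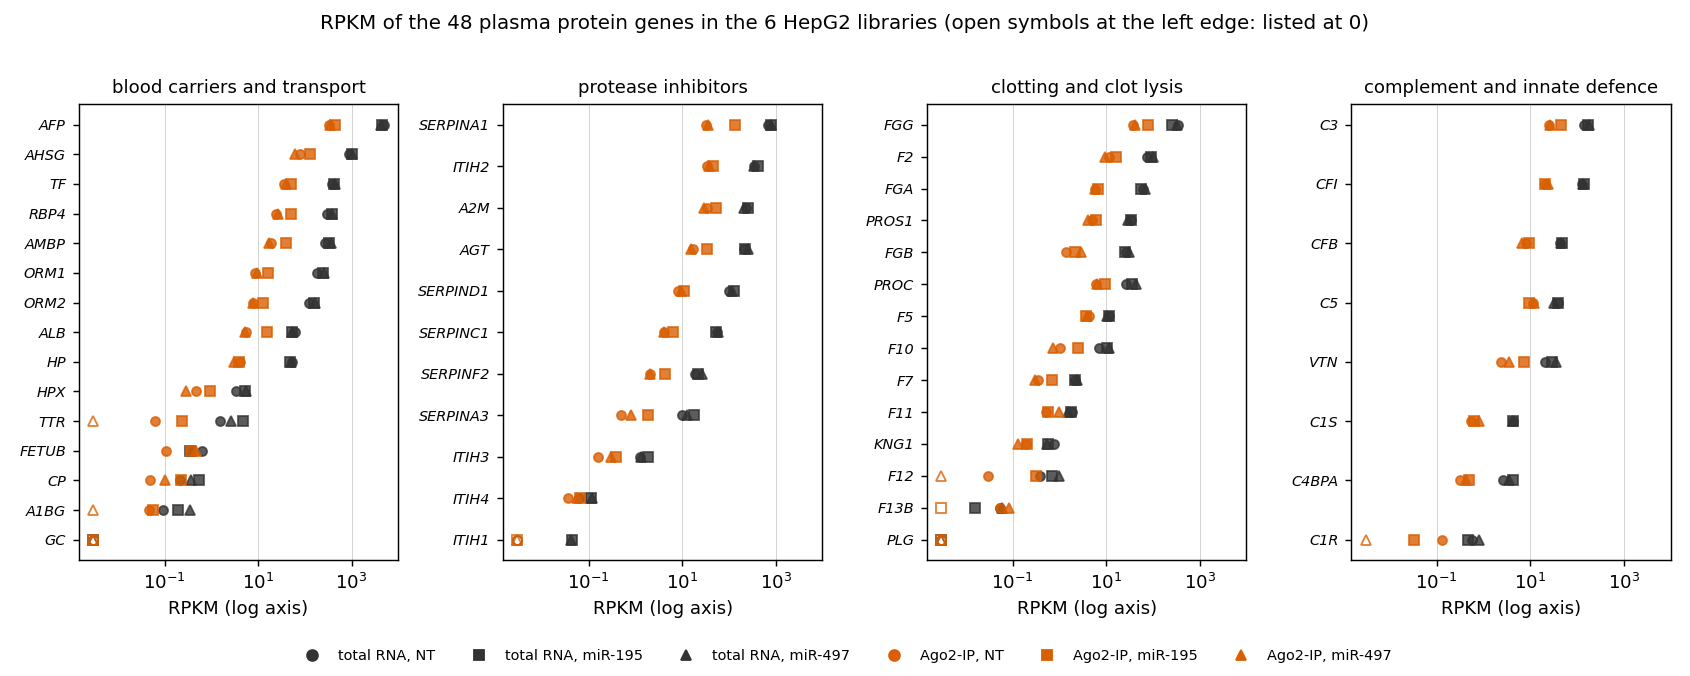
RPKM (log axis) of each of the 48 genes in the 6 libraries, in 4 panels by role, with total RNA in black, Ago2-IP in orange, and circles, squares and triangles for NT, *miR-195* and *miR-497*. Genes run from *AFP* at 4884 to *GC* and *PLG* at 0, and the black symbols of most genes lie close together and to the right of the orange ones.

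Among blood carriers, *AFP* RPKM was 4884 in NT cells, 4477 after *miR-195* and 4295 after *miR-497* in total RNA, and 331, 446 and 354 in the corresponding Ago2-IP libraries. *ALB*, the main protein of adult plasma, was at 61.4, 53.9 and 53.4 in total RNA and at 5.47, 15.5 and 5.22 in Ago2-IP. *AFP* was thus 79.5-fold, 83.1-fold and 80.4-fold above *ALB* in the 3 total RNA libraries, a ratio that moved little with either mimic. The genes lie side by side on chromosome 4 (hg19 chr4:74262831-74287199 for *ALB* and chr4:74296855-74321891 for *AFP*).

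*AHSG*, fetuin-A, which keeps calcium phosphate in solution, followed at 901, 1025 and 1040 in total RNA. *TF* was at 386, 431 and 440. *RBP4*, the carrier of retinol, was at 301, 383 and 388, and *AMBP*, the precursor of alpha-1-microglobulin and bikunin, at 277, 330 and 372. These carriers of the high range were all a little higher with both mimics than in NT cells, by less than 1.4-fold.
*ORM1* and *ORM2*, acid glycoproteins of the acute phase, were at 187 and 121 in NT cells; their mRNAs are nearly identical, so how 36-base reads were divided between them is uncertain. The same holds for *HP* (53.7, 48.8 and 50.1) and its close copy *HPR*. Other carriers were nearly silent. *HPX*, hemopexin, the heme carrier, was at 3.44, and *TTR*, transthyretin, a carrier of thyroid hormone and of RBP4 that is abundant in adult liver, at 1.52 in NT cells. *CP*, *FETUB* and *A1BG* were below 1 in every total RNA library, and *GC*, the vitamin D carrier, was listed at 0 in all 6.

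Protease inhibitors were led by *SERPINA1*, alpha-1-antitrypsin, the main inhibitor of neutrophil elastase, at 671, 797 and 795 in total RNA. *ITIH2* was at 345, 417 and 348. *A2M*, alpha-2-macroglobulin, was at 231, 252 and 213. *SERPINC1*, antithrombin, reached 56.6 in NT cells and *SERPINA3*, alpha-1-antichymotrypsin, a neighbour of *SERPINA1* on chromosome 14, only 9.84, 68.2-fold below it. Of the inter-alpha-trypsin inhibitor heavy chains, *ITIH2* stood apart: *ITIH3* was at 1.24, *ITIH4* at 0.0616 and *ITIH1* at 0 in NT cells.

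The fibrinogen genes, whose products join in equal numbers in the clotting protein, differed widely in RPKM. Ratios between genes also depend on the gene lengths behind the deposited values, which are not known. *FGG* RPKM was 337, 250 and 327 in total RNA, *FGA* 61.0, 55.5 and 67.6, and *FGB* 27.0, 25.3 and 30.1. *FGG* was 12.5-fold above *FGB* in NT cells, 9.89-fold after *miR-195* and 10.9-fold after *miR-497*, while *FGA* was 2.26-fold, 2.20-fold and 2.25-fold above *FGB*. The order held in all 3 conditions. *F2*, prothrombin, was at 74.1, 88.7 and 102, and *PROS1*, protein S, a cofactor of the anticoagulant protein C, at 33.4, 33.4 and 29.6. *F12* and *KNG1*, of the contact pathway, and *F13B* were below 1 in each total RNA library, and *PLG*, plasminogen, the precursor of the clot-dissolving enzyme, was listed at 0.

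In complement, *C3*, the protein on which the activation pathways converge, was at 139, 171 and 183 in total RNA. *CFI*, the protease that inactivates C3b, was at 128, 144 and 133. *CFB*, the protease of the alternative pathway, was at 42.8, 47.5 and 46.1, and *C5* at 38.3, 38.3 and 31.9. The paired proteases of the classical pathway were unequal, with *C1S* at 4.32 and *C1R* at 0.571 in NT cells.

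Total RNA was compared to find mRNAs that were lower with a mimic. In total RNA none of the plasma protein genes that could be compared was 2-fold lower with either mimic. Genes above 0 in the libraries compared and with a mean RPKM of at least 1 over the 6 libraries were used, which left 36 of the 48. The 12 below were *GC*, *CP*, *A1BG*, *FETUB*, *ITIH1*, *ITIH3*, *ITIH4*, *F12*, *F13B*, *PLG*, *KNG1* and *C1R*. With *miR-195*, 1 of the 36 was at least 2-fold higher, where 1.53% of 10821 genes were, and 0 were at least 2-fold lower, where 1.29% were. With *miR-497*, 0 of the 36 were at least 2-fold higher, where 2.16% of 10826 genes were, and 0 were lower, where 0.397% were. The counts were near these background shares and do not set the group apart.

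The median log2 ratio of the 36 was 0.18 after *miR-195*, against -0.01 over all genes compared, and 0.20 after *miR-497*, against 0.05. Of the 36, 26 lay above the median of all genes after *miR-195* and 24 after *miR-497*. Both comparisons share the NT library. By role the median after *miR-195* was 0.25 over 11 carriers, 0.23 over 8 inhibitors, 0.16 over 7 complement genes and -0.01 over 10 clotting genes, which ran from -0.43 to 0.61. With *miR-497* the medians by role were 0.37, 0.22, 0.11 and 0.14 in the order carriers, inhibitors, complement, clotting. The difference between roles was not tested. The ratios also went with coding length in the group, with Spearman's rho of -0.36 after *miR-195* and -0.52 after *miR-497* over the 36 genes, against 0.01 and -0.08 over 10198 genes, as a description across genes of the same libraries.

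*TTR* was the gene past 2-fold. With a mean RPKM of 1.55, it reached the limit of 1 only through the *miR-195* total RNA library, in which it was high. Its RPKM was 1.52 in NT cells, 4.81 after *miR-195* and 2.68 after *miR-497*, from an inferred 35, 131 and 77 reads, so the log2 ratio was 1.66 after *miR-195* (95% counting interval 1.11 to 2.24) and 0.81 after *miR-497* (0.22 to 1.43). *SERPINA3* was next after *miR-195*, with RPKM of 9.84, 17.9 and 12.9 and log2 ratios of 0.86 (0.68 to 1.04) and 0.39 (0.21 to 0.58). *C4BPA*, the binding protein that restrains C4b, was at 2.61, 4.25 and 3.57, with log2 ratios of 0.70 and 0.45. These genes were low in NT cells and higher in both mimic libraries.
*HPX*, with RPKM of 3.44, 5.23 and 5.63, and *F10*, clotting factor X, with 6.87, 10.5 and 11.3, both had log2 ratios of 0.61 after *miR-195* and 0.71 after *miR-497*. *VTN*, vitronectin, which binds to terminal complement and to the clot lysis inhibitor PAI-1, was at 20.7, 29.1 and 35.2, with log2 ratios of 0.49 and 0.76. *PROC*, protein C, was at 26.5, 34.8 and 42.5, with log2 ratios of 0.40 and 0.68.

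*AFP*, *ALB* and *SERPINA1* stayed near their NT levels. The log2 ratio of *AFP* was -0.13 after *miR-195* and -0.19 after *miR-497*, that of *ALB* -0.19 and -0.20, and that of *SERPINA1* 0.25 with both. *FGG* had the lowest value of the 36 after *miR-195*, -0.43 (-0.47 to -0.39), and -0.04 after *miR-497*, while its partners *FGA* (-0.14 and 0.15) and *FGB* (-0.10 and 0.16) were within 0.2 of no difference. Below the mean RPKM of 1, where a few reads set the value, *CP*, ceruloplasmin, the copper-carrying oxidase, had log2 ratios of 1.36 (0.59 to 2.19) after *miR-195* and 0.79 after *miR-497*, from an inferred 19, 58 and 41 reads. In the same low range *F12* had 1.41 after *miR-497* from 19 and 63 reads, and *A1BG* 1.05 and 1.88, while *F13B*, a subunit of the clot-stabilizing factor XIII, had -1.83 after *miR-195* from 3 reads in NT cells and 1 read (-7.55 to 1.81).

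**Figure D2:**
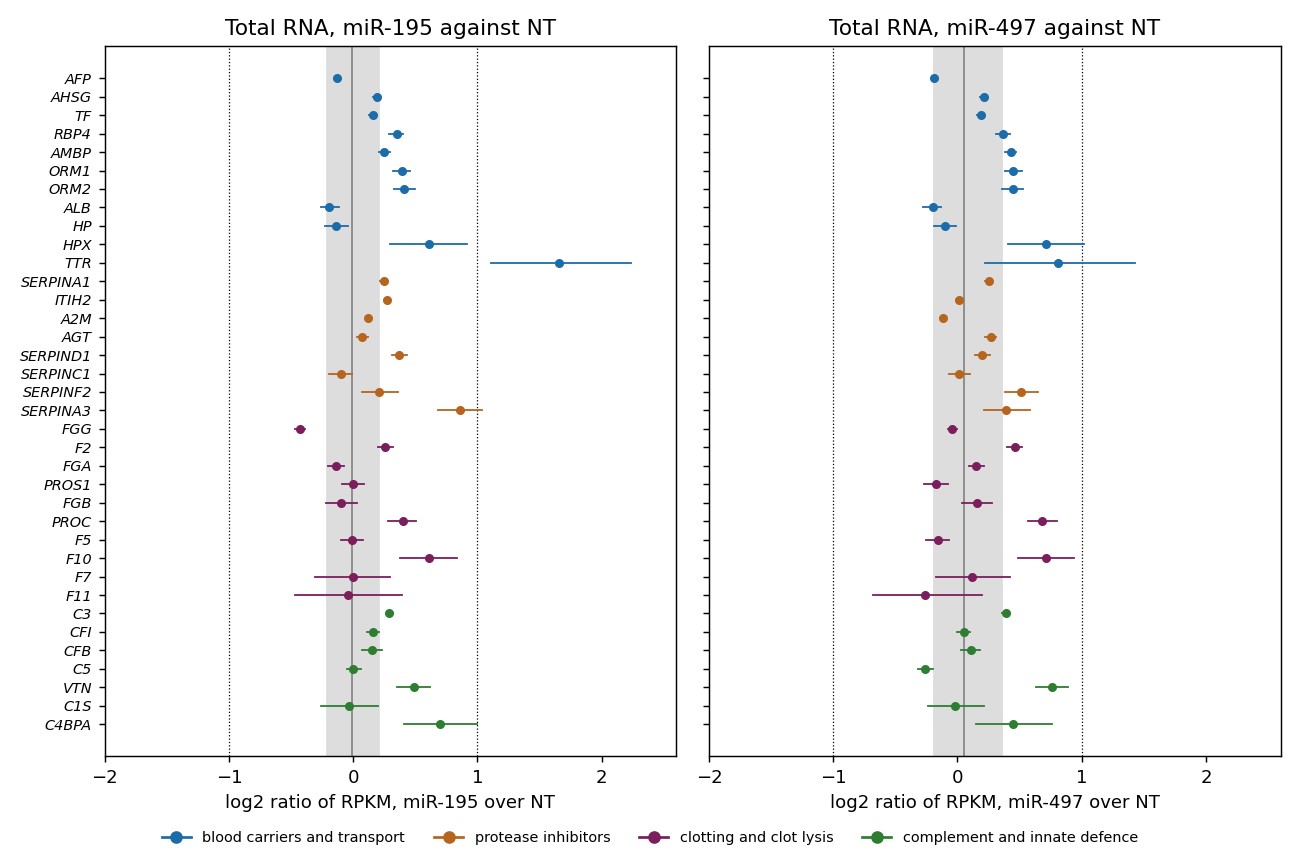
Log2 ratio of RPKM in total RNA for the 36 genes compared, *miR-195* over NT at left and *miR-497* over NT at right, colored by role and ordered within a role by level in NT cells, with 95% counting intervals as bars. The grey band and line mark the middle 50% and the median of all genes, and dotted lines mark 2-fold; only *TTR* after *miR-195* lies past them.

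The genes with a seed word had lower medians than the other members with both mimics. None of the 5 compared was at least 2-fold lower than in NT cells. Of all compared genes with the word, 57 of 2959 were after *miR-195* and 10 of 2959 after *miR-497*. So few members could not show a difference from these shares. The 5 that could be compared had a median log2 ratio of -0.00 after *miR-195* and 0.12 after *miR-497*, against 0.25 and 0.21 for the 31 members without the word. Over all genes the medians with and without the word were -0.09 and 0.02 for *miR-195*, and -0.02 and 0.07 for *miR-497*. By gene, *TF* had log2 ratios of 0.16 and 0.19, *AGT* 0.07 and 0.27, *HP* -0.14 and -0.10, *F7* -0.00 and 0.12, and *F11* -0.04 and -0.26. Those of *F7* and *F11* had counting intervals that included 0 with both mimics.

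The mimics themselves gave like levels of these mRNAs, as of most genes. The log2 ratio of *miR-195* over *miR-497* in total RNA had a median of -0.02 over the 36 genes and of -0.08 over 10836 genes. In the group it ran from -0.39 to 0.84, and the highest value was that of *TTR*. Thus 0 of the 36 differed 2-fold, where 0.415% of all genes were higher and 0.831% lower. The count does not set the group apart.

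Genes that serve the group were compared in the same way. Of 28 secretory and processing factors, which translocate, fold and cleave these proteins, *FURIN*, the protease that cuts many proproteins, was the only one past 2-fold, with RPKM of 19.1, 8.37 and 18.0 and log2 ratios of -1.19 after *miR-195* and -0.08 after *miR-497*. The median of the 28 was -0.03 and -0.00. *LMAN1* and *MCFD2*, the cargo receptor for factors V and VIII, had log2 ratios of -0.60 and -0.55 after *miR-195* and -0.53 and -0.95 after *miR-497*. Of 17 compared liver regulators, such as *HNF4A* and *CEBPA*, 0 were past 2-fold with either mimic, and their log2 ratios ran from -0.24 to 0.54 after *miR-195* and from -0.84 to 0.65 after *miR-497*. In total RNA of NT, *miR-195* and *miR-497* cells in turn, *HNF4A* had an RPKM of 40.0, 36.4 and 49.5, and *CEBPA* of 27.3, 24.5 and 33.1.

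Among other plasma protein genes, *HAMP*, which encodes the iron hormone hepcidin, was the only one past 2-fold of 28 compared. Its RPKM was 16.8 in NT cells, 2.16 after *miR-195* and 7.35 after *miR-497*, with log2 ratios of -2.96 and -1.19. The median of the 28 was 0.21 after *miR-195* and 0.20 after *miR-497*, close to that of the 36 genes described above.

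The second measure of the study was the RNA bound to Ago2. In NT cells, plasma protein mRNAs were poorly represented in Ago2-IP. All 36 genes compared were at least 2-fold lower in Ago2-IP than in total RNA, where 78.6% of 10825 genes were lower and 2.83% at least 2-fold higher. With each library divided by its median RPKM over the genes compared, 25 of the 36 were lower, where 20.6% of all genes were. The median log2 ratio of Ago2-IP over total RNA was -3.25 for the 36 and -1.85 over all genes, and 33 of the 36 lay below the median of all genes. Summed RPKM over all genes was 311114 to 333420 in the total RNA libraries and 67344 to 116069 in the Ago2-IP libraries, so the negative median of all genes goes with the deposited scale, and the group is best read against that median.

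Carriers and inhibitors had the lowest ratios (medians of -3.74 and -3.64), and clotting and complement genes the least low (-2.70 and -2.61). *TTR* was lowest at -4.57, but from 1 inferred read in Ago2-IP (95% counting interval -9.92 to -2.0). *ORM1* followed at -4.45, from RPKM of 187 in total RNA and 8.57 in Ago2-IP, and *SERPINA1* at -4.39, from 671 and 32.1. *SERPINA3* (-4.34) and *FGB* (-4.30) were close behind.
At the other end, *F5*, clotting factor V, was at 11.4 in total RNA and 4.28 in Ago2-IP, a log2 ratio of -1.41, and *C5* was at 38.3 and 11.5, a ratio of -1.74. *F11* was at 1.86 and 0.523, with -1.83. These 3 were the members above the median of all genes. When each library was divided by its median RPKM over the genes compared, *F5* was at 0.33 and *C5* at 0.00. The median of the 36 was then -1.5 against -0.11 over all genes.

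The ratio followed the length of the coding sequence. Over the 36 genes Spearman's rho between the log2 ratio and the longest annotated coding length was 0.67, and 0.47 over 10193 genes, as a description across genes of the same pair of libraries. *F5*, *C5* and *C3* have the longest coding sequences of the group at 6687, 5046 and 4989 bases, and *TTR*, at 441, and *ORM1* and *RBP4*, at 603 bases, are among the shortest. The gap to other genes was also present within classes of length. Among genes with 1000 to under 2000 coding bases, the 22 members had a median of -3.33 and the 3935 other genes -1.93, and 20 of the 22 lay below the lower quartile of the others. Among genes of 3000 bases or more, the 4 members had a median of -2.09 and the other 1452 genes -1.12.
The gap was smaller among abundant mRNAs. Where total RNA of NT cells gave an RPKM of 100 or more, the median was -3.62 for 15 members and -3.23 for 549 genes in all. The secretory and processing factors, also abundant, had a median of -2.84 over 28 genes, other plasma protein genes -2.73, and the liver regulators, mostly transcription factors, -1.78.

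**Figure D3:**
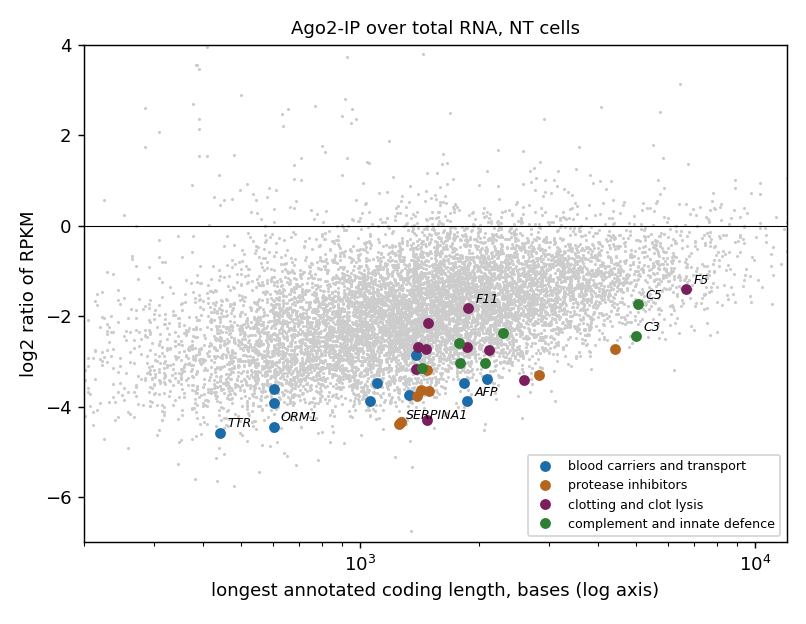
Log2 ratio of RPKM in Ago2-IP over total RNA in NT cells against the longest annotated coding length in bases (log axis), for the 36 genes compared (colored by role) and other genes (grey; values outside the axis are not drawn). Most colored points lie in the lower part of the grey cloud, and the group runs from *TTR* at -4.57 to *F5* at -1.41.

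With the mimics the same mRNAs stayed at low ratios. The median of Ago2-IP over total RNA was -2.73 for the 36 after *miR-195*, against -1.30 over all genes, and -3.43 for 35 genes after *miR-497*, against -2.21. *TTR* was listed at 0 in the Ago2-IP library after *miR-497* and dropped out. With *miR-195* each of the 36 lay below the median of all genes. *F11* was the least low after *miR-497* at -0.64.

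Against NT Ago2-IP, the *miR-195* Ago2-IP library had more of most mRNAs, of this group and at large. Of the 36 genes, 10 were at least 2-fold higher, where 22.1% of 10881 genes were, and 0 were at least 2-fold lower, where 0.965% were. The median log2 ratio was 0.67 in the group and 0.50 over all genes, and 22 of the 36 lay above the median of all genes. When each library was divided by its median over the genes compared, 5 of the 36 stayed 2-fold higher, where 8.0% of all genes were. These were *SERPINA1*, *SERPINA3*, *TTR*, *VTN* and *ALB*. The median log2 ratio was then 0.19 in the group and 0.02 over all genes.

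*SERPINA1* had Ago2-IP RPKM of 32.1 in NT cells, 134 after *miR-195* and 35.5 after *miR-497*, for log2 ratios of 2.07 after *miR-195* (counting interval 1.94 to 2.19) and 0.15 after *miR-497*. *ALB* was at 5.47, 15.5 and 5.22, with 1.5 (1.24 to 1.77) and -0.07. *VTN* was at 2.34, 7.23 and 3.47, with 1.63 (1.18 to 2.11) and 0.57. In these genes the *miR-195* library stood above the others. Their total RNA did not move alike, since the log2 ratio after *miR-195* in total RNA was 0.25 for *SERPINA1*, -0.19 for *ALB* and 0.49 for *VTN*, and none has the seed word in an annotated 3′UTR.
*SERPINA3* was at 0.486, 1.89 and 0.826 in Ago2-IP, from 13, 41 and 14 inferred reads, with a log2 ratio of 1.96 (1.03 to 2.99) after *miR-195*. *F10* had 1.28 (0.54 to 1.99), *FGG* 1.10, *AMBP* 1.10, *SERPINF2*, alpha-2-antiplasmin, 1.04, and *RBP4* 1.02. The value of *TTR*, 1.89, rested on 1 and 3 reads (-1.75 to 7.60).
*C5* (-0.27), *F5* (-0.22), *CFI* (-0.03) and *HP* (-0.01) were the members not higher.

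The *miR-195* difference in Ago2-IP also went with length, in the opposite sense. Spearman's rho with coding length was -0.66 over the 36 genes and -0.29 over 10199 genes. Among genes of 1000 to under 2000 coding bases, the 22 members had a median log2 ratio of 0.84 and the others 0.51, with 11 of the 22 above the upper quartile of the others. Among those of 2000 to under 3000 bases, the 6 members were at 0.27 and the others at 0.37, and among those of 3000 bases or more, the 4 members were at 0.19 and the others at 0.24. The shorter mRNAs of the group thus had the larger values, and the medians of the longer ones were below those of other genes of their length.

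In Ago2-IP after *miR-497*, on the deposited scale, most of the group was near its NT level, while genes at large were lower. Of 35 genes compared, 1 was at least 2-fold higher, where 1.28% of 10850 genes were, and 0 were at least 2-fold lower, where 4.69% were. With each library divided by its median over the genes compared, 3 were higher, where 2.01% of all genes were. The median log2 ratio on the deposited scale was 0.04 in the group and -0.25 over all genes, and 27 of the 35 lay above the latter. With each library divided by its median over the genes compared, the median log2 ratio was 0.3 in the group and 0.01 over all genes. *FGB* was the gene past 2-fold, with RPKM of 1.37, 2.20 and 2.86 in NT, *miR-195* and *miR-497* Ago2-IP, and a log2 ratio of 1.06 (0.39 to 1.75) after *miR-497*. *F11* was at 0.523, 0.565 and 0.998, with 0.93 (-0.11 to 1.92). The lowest value was that of *HPX*, -0.72 (-2.56 to 0.86), from 13 and 5 inferred reads. *AFP* was at 0.10 and *C3* at 0.02.
Length went with this difference neither in the group (Spearman's rho 0.03 over 35 genes) nor much at large (0.12 over 10179). Among genes of 1000 to under 2000 coding bases, the 22 members had a median of 0.04 and the others -0.27, with 13 of the 22 above the upper quartile of the others.

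**Figure D4:**
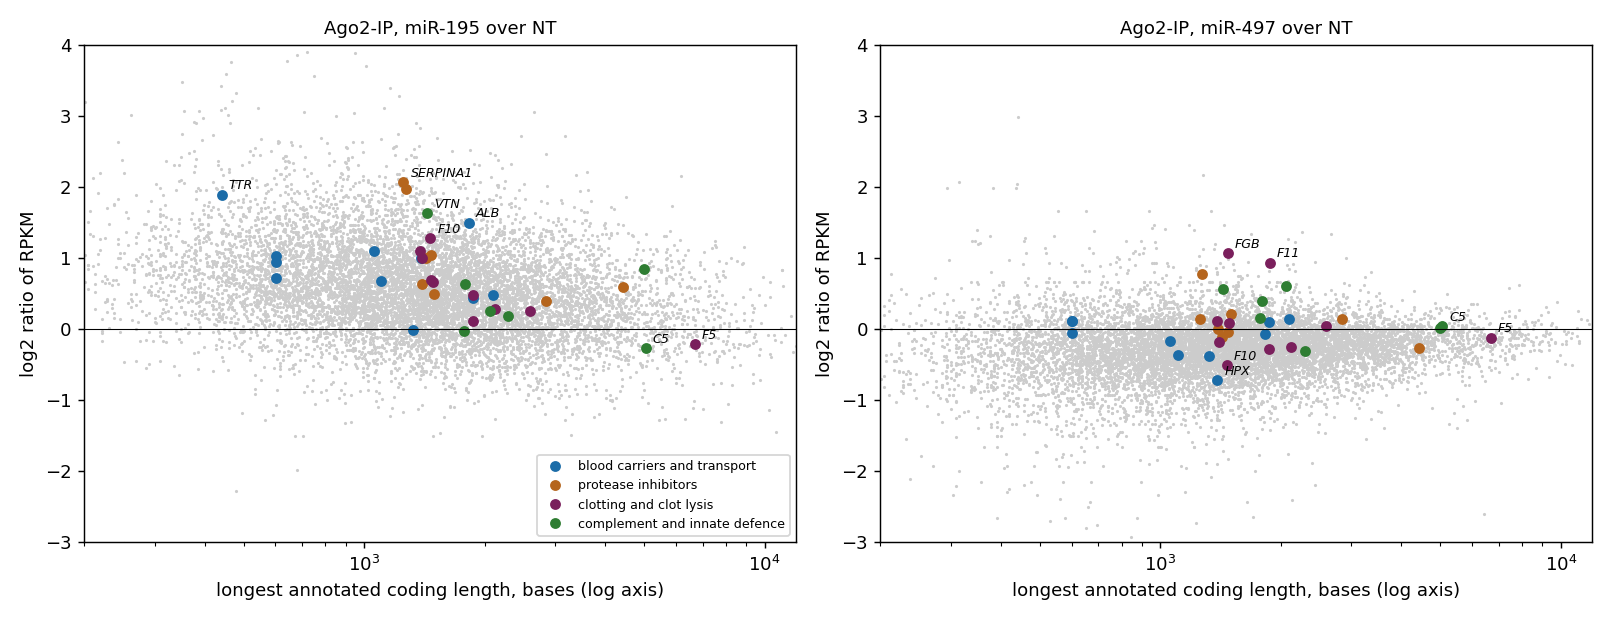
Log2 ratio of Ago2-IP RPKM after *miR-195* over NT (left) and after *miR-497* over NT (right) against the longest annotated coding length in bases (log axis), for the genes compared (colored by role) and other genes (grey; values outside the axis are not drawn). At left *SERPINA1*, *TTR*, *VTN* and *ALB* lie from 1.5 to 2.07 and the long *C5* and *F5* below 0; at right most colored points lie near 0, within or above the upper part of the grey cloud.

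The study ranked targets by the fold enrichment score, the Ago2-IP to total RNA ratio with a mimic divided by that ratio in NT cells. It chose its candidates only from genes with a predicted target site in the 3′UTR, and then kept those lowered on its expression arrays. The scores below are given without these steps, for members with or without a site. Plasma protein genes did not score above genes at large after *miR-195*. The median log2 score was 0.43 for the 36 and 0.50 over 10811 genes, and 16 of the 36 were above the median of all. *SERPINA1* had the highest score of the group at 3.53, followed by *ALB* at 3.22, *FGG* at 2.89, *VTN* at 2.20 and *SERPINA3* at 2.15, and the lowest was that of *C5* at 0.828. *FGG* owed its place to both parts of the score, as its Ago2-IP RPKM went from 37.4 to 80.3 and its total RNA from 337 to 250. By role the median log2 score was 0.78 for inhibitors, 0.49 for carriers, 0.33 for clotting and 0.04 for complement.
With *miR-497* the median log2 score was -0.11 for 35 genes and -0.27 over 10786 genes. *F11* was highest at 2.28 and *HPX* lowest at 0.371, both from Ago2-IP values of few reads. *SERPINA1* and *ALB* were at 0.933 and 1.10.
Of the genes with the seed word, *F7* scored 2.00 and 0.805 after *miR-195* and *miR-497*, *AGT* 1.89 and 0.768, *TF* 1.25 and 0.967, *F11* 1.11 and 2.28, and *HP* 1.09 and 0.820. *F11* after *miR-497* was past 2-fold, where 1.13% of 10786 genes were at least 2-fold higher. *F7* after *miR-195* was just under 2-fold, where 19.3% of 10811 genes were at least 2-fold higher. The median log2 score of the 5 genes was 0.32 after *miR-195* and -0.29 after *miR-497*, against 0.47 and -0.10 for members without the word. Over all genes the order was the other way. Genes with and without the word had medians of 0.58 and 0.47 after *miR-195*, and -0.23 and -0.31 after *miR-497*.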

How the data were processed

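The 6 libraries of Hep G2 cells held total RNA (mRNA-seq) or Ago2-IP RNA from NT cells and from cells given either mimic. The authors mapped 36-base reads to hg19 and deposited RPKM for each library, made with CASAVA 1.7 according to the submitters' processing notes; the use of poly-A selection is not assigned to libraries in the sources used here. Of the 6 value columns 0 were left unmatched. For 28 symbols with repeated lines the mean of the lines was used.

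The genes, lists and promoter words were chosen with earlier results of these data known. Log2 ratios were taken without a pseudocount, over genes above 0 in the libraries used and with a mean RPKM of at least 1 over 6 libraries, and 2-fold was the limit. With 1 library per condition, no test was made. The text names *ALB* and *AFP*, the 3 highest genes of each role, genes past 2-fold in total RNA, genes with a seed word, the 3 highest and 3 lowest Ago2-IP to total RNA ratios, the extreme scores, and list genes past 2-fold; *SERPINA3*, *CP*, *LMAN1*, *KRT19* and other further genes were chosen after their values were seen.

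3′UTRs and coding lengths came from GENCODE release 44 on GRCh37 (hg19), where 18208 symbols matched directly, 2278 through an older symbol and 1377 not. Promoters and mature miRNAs came from RefSeq (GRCh38.p14). Read numbers were inferred where the 6 RPKM of a gene stood in ratios of whole numbers and the implied length was within 1.75-fold of the annotated mRNA (12 of the 48 genes), and otherwise estimated from the coding length, which is shorter than the annotated mRNA and gives wider intervals, except for *FGA*, where it is longer (2598 against 2209 bases) and the interval is narrower, and *C1R*, which had no annotated mRNA length. The 95% intervals are exact binomial ones for 2 libraries. Scripts were tested on simulated data. Python 3.11.15, numpy 2.4.6, pandas 2.3.3, scipy 1.17.1 and matplotlib 3.10.9 were used. The alternatives were pseudocounts, filters, scaling by the median RPKM of the genes compared, the highest line of a symbol, a 1.5-fold limit and other seed words. A limit to genes of 1000 to 2000 coding bases was added after the data were seen. Some of the listed genes are not reported here by name.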

Additional observations from a re-analysis of the deposited data

How the results depend on the processing

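Most of the summary values kept their size: 103 were within the counting spread, or within 1.5 times the main count, and 26 were not. No paired analysis was possible because each condition has 1 library of each kind. Division of each library by its median RPKM over the genes compared moved the median log2 ratio to 0.19 (Ago2-IP after *miR-195*), -1.5 (Ago2-IP over total RNA, NT), -0.08 (score, *miR-195*) and 0.06 (*miR-195* over *miR-497*). This division turned *F5* in Ago2-IP over total RNA to 0.33. It left 5 genes higher in Ago2-IP after *miR-195* (8.0% of all genes) and 3 after *miR-497* (2.01%). A pseudocount of 1 moved Ago2-IP over total RNA to -2.78 and left 5 genes higher in Ago2-IP after *miR-195* (10.4% of all) and 0 after *miR-497* (0.654%). With no filter on low values, 3 of 45 genes were higher (5.81% of all) and 1 lower (3.2%) in total RNA after *miR-195*, 2 of 45 were higher after *miR-497* (6.67%), and in Ago2-IP 1 of 44 was lower after *miR-195* (2.58%) and 3 of 41 were higher after *miR-497* (3.48%). With an RPKM of at least 100 in NT cells, Ago2-IP over total RNA was -3.62 with 15 of 15 genes lower (98.2% of all), 0 genes were higher in total RNA after *miR-195* (0.182%), and in Ago2-IP 4 were higher after *miR-195* (31.3%) and 0 after *miR-497* (0.364%). At a 1.5-fold limit, 5 genes were higher in total RNA with either mimic, where 6.29% and 12% of all genes were, 22 in Ago2-IP after *miR-195* (44.8% of all), and 4 were higher (3.0%) and 1 lower (18.2%) in Ago2-IP after *miR-497*. Among genes of 1000 to 2000 coding bases, 22 of 22 were lower in Ago2-IP than in total RNA, as were 84.7% of all 3957. The word TGCTGCTA was in 0 genes. Of single genes past 2-fold, 300 values stayed past it, 31 fell short of it and 1, that of *F5*, turned. Filters and the length class leave a gene's own ratio unchanged, so their values count among the 300 by construction. The highest line of a symbol also gave 56 values that stayed. After division by the median, 37 stayed, 18 fell short and 1 turned. With a pseudocount of 1, 44 stayed and 12 fell short, and with 0.1, 55 stayed and 1 fell short. The cause of these moves was not tested. The NT library enters every ratio to NT, so an error in it would move the group's ratios together, and 12 of the 48 genes were too low to compare.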

Other observations

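Some plasma protein genes beyond the 48 were listed at 0 in these libraries. Of 65 other plasma protein genes listed, 63 had a deposited value, 28 of them a mean RPKM of at least 1, and 10 were listed at 0 in all 6 libraries, among them *F9*, *FCN2*, *FCN3*, *CRP*, *SAA2* and *SPP2*. *FN1*, fibronectin, was the highest of them at an RPKM of 1337 in total RNA of NT cells, 1574 after *miR-195* and 1179 after *miR-497*. *CRP*, *SAA1* and *SAA2*, strongly induced in liver in the acute phase, were at 0 in all 3 total RNA libraries, while *ORM1*, *ORM2* and *SERPINA1*, which also belong to that response, were above 100. *SAA1* and *SAA2* are nearly identical, so how 36-base reads were assigned to them is uncertain, and a listed 0 need not mean that the mRNA was absent.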
